A study of Mus musculus with 11 samples.

Results

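The genes described here encode the nuclear pore complex and the proteins that carry cargo through it. They were chosen by symbol: protein-coding genes whose names begin with Nup, Ipo, Kpn, Xpo, Tnpo, Thoc, Nxf or Nxt, leaving out Xpo5, which exports microRNA precursors, and Nupr1, a stress-response factor that shares only the letters. This gave 58 genes among the 21998 protein-coding genes listed. By role, 23 encode pore proteins, 17 import receptors, 5 exportins, 6 subunits of the THO complex and 6 mRNA export receptors of the Nxf and Nxt families. The remaining gene, Nupr1l, is a relative of Nupr1 that fits the naming rule but is not a transport factor. The rule used gene symbols and no measured values, but it was chosen with earlier results of these data known.

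RNA-seq was performed on E14 cells, a mouse embryonic stem cell (ESC) line, grown in medium with leukaemia inhibitory factor (LIF), which holds the cells in the pluripotent state. Cells were transfected for 36 h with a scrambled control siRNA (3 libraries), with CMTR1 siRNA 1 (4 libraries) or with CMTR1 siRNA 2 (4 libraries). All 3 groups share the cell line, the medium and the transfection, and no untransfected cells were analysed here. CMTR1 is the cap methyltransferase that adds a 2′-O-methyl group to the ribose of the nucleotide at which RNAPII starts a transcript. The comparison of each CMTR1 siRNA with the control siRNA asks how transcripts respond to the siRNA, and the comparison of the siRNAs with each other asks whether the response was shared.

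The nuclear pore is an assembly of nucleoporins (Nup proteins) in rings, with a central channel of flexible proteins through which receptors move. Importins bind cargo in the cytoplasm through a nuclear localisation signal, often with importin α as the adaptor and importin β as the carrier, and exportins move proteins and tRNA outward under control of the small GTPase Ran. Bulk mRNA leaves by a Ran-independent route in which the THO complex joins the transcript during transcription and the heterodimer of Nxf1 with Nxt1 takes it through the channel. The cap structure on which CMTR1 acts is bound in the nucleus by the cap-binding complex, which helps to recruit the mRNA export machinery.

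The data are counts of reads per Ensembl gene, and total counts ran from 6738478 to 8382318 per library. Levels are given as CPM, the count scaled to a library total of 1000000. Cmtr1 itself was counted at 21.3, 21.7 and 17.9 CPM in the control libraries, 21.1, 21.3, 16.2 and 18.0 CPM with siRNA 1, and 15.6, 16.8, 16.4 and 19.5 CPM with siRNA 2. The groups overlapped. The log2 fold change against control was −0.088 (SE 0.11, adjusted p = 0.743) with siRNA 1 and −0.25 (SE 0.11, adjusted p = 0.144) with siRNA 2, so a lower level of the targeted transcript did not pass the test in either group. Each value rests on 110 to 176 reads, and 36.3% of the exon length of Cmtr1 lies on the same strand as exons of other annotated genes, so that some of its reads may not have been assigned to it. The groups below are therefore the libraries labelled with each siRNA. The ESC markers Pou5f1, Sox2, Nanog, Esrrb, Zfp42, Utf1, Dppa5a and Tdgf1 summed to 1916–2019 CPM in control, 1644–1810 CPM with siRNA 1 and 1731–1808 CPM with siRNA 2. Of these 8 markers, 5 passed the test as lower with siRNA 1 and 3 with siRNA 2 (Nanog, Esrrb and Zfp42 with both). Over all genes 1.97% and 3.55% were called lower. Esrrb was also lower with siRNA 2 than with siRNA 1 (−0.21, adjusted p = 0.0312). Fibroblast markers summed to 36.3–44.4, 34.7–48.7 and 45.3–50 CPM, with Col1a1 higher with siRNA 2 (log2 fold change 0.75, adjusted p = 6.42e-05), Pdgfra at −0.20 (adjusted p = 0.399) and Postn at or near 0. Neural markers summed to 113–119, 116–134 and 108–128 CPM, with Map2 higher with siRNA 2 (0.36, adjusted p = 0.0455) and Pax6 lower with siRNA 2 than with siRNA 1 (−0.68, adjusted p = 0.000312). Endoderm markers summed to 12.6–20.4, 11.6–18.9 and 12.2–16.2 CPM and mesoderm markers to 8.88–9.37, 8.02–10.7 and 7.16–9.03 CPM, with no marker called in any of the 3 comparisons. Blood markers did not exceed 0.37 CPM in any library. The part of these shifts in the results below was not tested, and in bulk RNA fewer cells of a type and less RNA per cell cannot be told apart.

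Of the 58 genes, 55 exceeded 1 CPM in at least 4 libraries and were tested. Kpna7, an importin α of oocytes and early embryos, had 0 to 2 reads per library and Nupr1l had 2 to 9. Nupl1, which encodes the channel nucleoporin Nup58, had 0 to 1 reads. The value of Nupl1 is uncertain, because 52.5% of its 75-nt stretches, the read length, also occur in other annotated genes, chiefly Gm49336, which overlaps it. The same measure was 59.5% for Kpna2, 50.4% for Ipo4 and 34.7% for Nup35, whose counts may likewise be split with other loci.

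The genes were strongly expressed in ESCs. Their median level was 182 CPM against 17.3 CPM for all 16073 genes tested, 37 of them lay at or above 100 CPM, and together the 58 genes held 1.11–1.21% of the counts in every library. Divided by exon length, the median in control was 25.8 CPM per kb against 4.74 CPM per kb over all genes tested. The highest level was that of Kpnb1, importin β itself, at 181 ± 3.61 CPM per kb (SD, n = 3). It was followed by Ipo5, an importer of ribosomal proteins and histones, at 142 ± 4.02, and by Xpo1, the main exporter of proteins with a nuclear export signal, at 91.2 ± 3.82 CPM per kb. Kpna2, an importin α, stood at 77.9 ± 0.912 CPM per kb, the channel protein Nup62 at 65.9 ± 3.67 and the nuclear basket protein Nup153 at 59.2 ± 1.60. These 6 levels were separated by more than the SDs of neighbours in the order. The mRNA export receptor Nxf1 stood at 44.9 ± 0.631 CPM per kb and its partner Nxt1 at 20.9 ± 1.31. The paralogues lay far lower, with Nxt2 at 5.12 ± 0.555, Nxf3 at 2.07 ± 0.153, Nxf7 at 1.22 ± 0.308 and Nxf2 at 0.602 ± 0.122 CPM per kb. Control libraries were close to each other, with a median coefficient of variation of 3.52% over the genes tested.

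**Figure D1:**
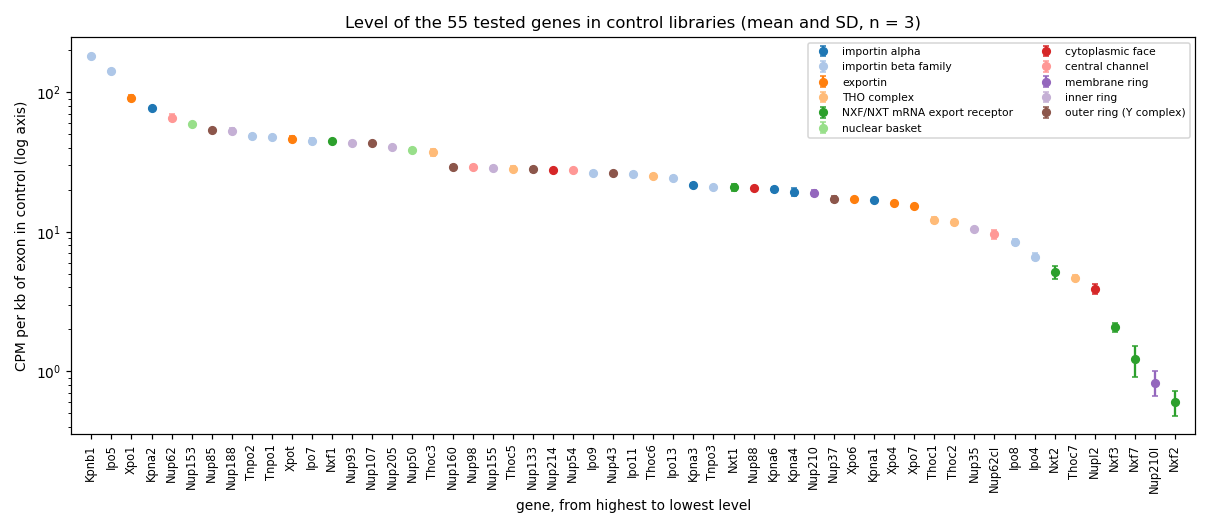
Level of each of the 55 genes tested in control libraries, as CPM per kb of exon on a log axis, ordered from highest to lowest. Points are means of 3 libraries, bars are SDs and colours give the role; Kpnb1 stands highest at 181 CPM per kb and Nxf2 lowest at 0.602.

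With siRNA 1, 3 of the 55 genes were called at a Benjamini-Hochberg adjusted p of at most 0.05 (edgeR quasi-likelihood test over all genes tested), or 5.45%, beside 4.67% of all genes. All 3 were lower (1.97% of all genes were): Xpot, Ipo7 and Kpna1. At an unadjusted p under 0.05 there were 6 genes, 2 of them higher (10.9%, beside 16.8% of all genes), and DESeq2 also called 3, all lower, and 521 of all genes. Among genes at or above 100 CPM the shares were 8.11% of the transport genes and 8.25% of all genes, so the count was near the background. Log2 fold changes ran from −0.26 (Xpot) to 0.27 (Nxf3). Their median was −0.0019 against 0.024 for all genes tested, and 28 of the 55 were below 0 (50.9%, beside 43.2% of all genes). At or above 100 CPM the shares below 0 were 51.4% and 51.5%. The median size of change regardless of sign was 0.047 on the log2 scale, against 0.11 over all genes tested.

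With siRNA 2, 9 of the 55 genes were called, or 16.4%, beside 9.72% of all genes. Kpna1 and Xpot were lower (3.64%, beside 3.55% of all genes), and Kpna6, Kpna4, Ipo13, Nup98, Thoc2, Nxt2 and Nxf2 were higher. The 7 higher genes were 12.7% of those tested, beside 6.17% of all genes. At or above 100 CPM, higher calls were 13.5% of the transport genes and 7.40% of all genes, and calls in either direction 18.9% and 14.6%. The median log2 fold change was 0.038 (all genes 0.029), with 16 of the 55 below 0 (29.1%, beside 42.9% of all genes; 29.7% and 45.4% at or above 100 CPM). With trimmed-mean (TMM) factors in place of total-count scaling, the medians were 0.014 for these genes and 0.004 for all genes. The calls were then 2 lower and 4 higher, as Ipo13, Kpna4 and Thoc2 no longer passed, and over all genes the split went from 571 lower and 991 higher to 734 lower and 728 higher. Without control replicate 3 only 2 genes were called, Kpna1 lower and Nxf2 higher, while calls over all genes fell from 1562 to 807. Leaving out control replicate 2 gave 5 calls, with 916 over all genes, and DESeq2 gave 5, with 958 over all genes.

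**Figure D2:**
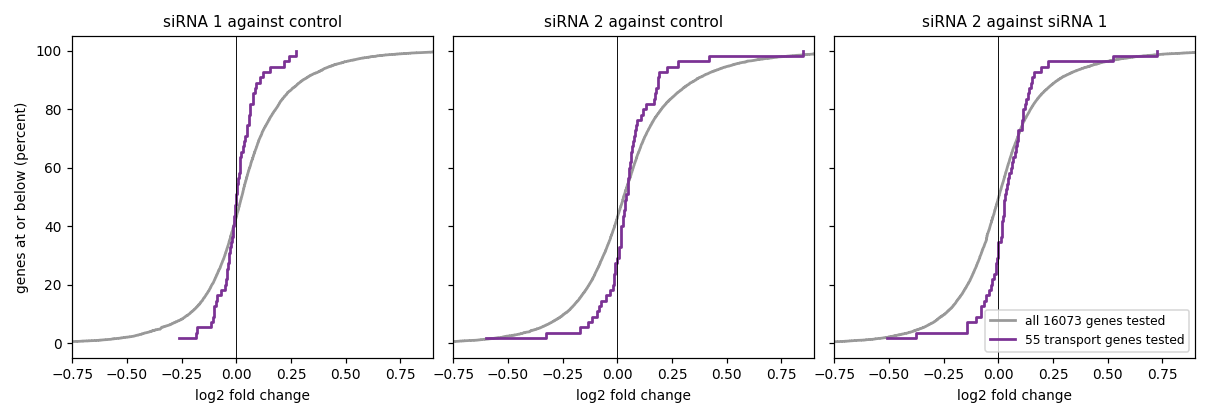
Cumulative distributions of log2 fold changes (x axis) as the percent of genes at or below each value (y axis) for the 55 transport genes and all 16073 genes tested, in each of the 3 comparisons. With siRNA 1 the transport genes gather close to 0 with a median of −0.0019, and with siRNA 2 their median is 0.038.

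CMTR1 modifies the first nucleotide that is transcribed, so the promoter windows around the annotated starts are given for the genes called against control. Each runs from 40 bases before the start to 20 from it, 5′ to 3′ on the coding strand, with the first transcribed base in capitals. Sequences are from RefSeq (GRCm38.p6), which gave promoters for 46 of the 58 genes by symbol, and Kpna1 and Kpna6 were not among them.
Xpot, chr10:121626313-121626372, minus strand: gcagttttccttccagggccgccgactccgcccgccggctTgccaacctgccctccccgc
Ipo7, chr7:110018275-110018334, plus strand: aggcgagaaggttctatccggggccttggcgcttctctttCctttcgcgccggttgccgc
Kpna4, chr3:69127073-69127132, minus strand: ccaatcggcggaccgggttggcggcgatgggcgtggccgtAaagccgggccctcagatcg
Ipo13, chr4:117914980-117915039, minus strand: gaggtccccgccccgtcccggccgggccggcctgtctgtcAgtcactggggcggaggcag
Nup98, first start, chr7:102210147-102210206, minus strand: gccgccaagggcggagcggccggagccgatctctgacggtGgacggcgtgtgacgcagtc
Nup98, second start, chr7:102209848-102209907, minus strand: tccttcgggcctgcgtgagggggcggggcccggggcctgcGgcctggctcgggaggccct
Thoc2, chrX:41911882-41911941, minus strand: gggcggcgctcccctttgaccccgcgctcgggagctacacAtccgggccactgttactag
Nxt2, first start, chrX:142227897-142227956, plus strand: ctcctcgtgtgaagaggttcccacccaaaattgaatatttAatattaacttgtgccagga
Nxt2, second start, chrX:142228137-142228196, plus strand: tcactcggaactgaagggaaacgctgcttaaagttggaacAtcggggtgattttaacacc
Nxf2, first start, chrX:134964735-134964794, minus strand: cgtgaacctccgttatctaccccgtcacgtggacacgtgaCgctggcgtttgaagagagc
Nxf2, second start, chrX:134963878-134963937, minus strand: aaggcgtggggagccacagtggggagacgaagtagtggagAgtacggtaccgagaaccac
Over the 59 promoters of the 46 genes the first base was A in 25.4%, C in 15.3%, G in 49.2% and T in 10.2%, and over all 32851 promoters in the table it was A in 34.4%, C in 16.3%, G in 35.6% and T in 13.7%. Over the 15 promoters of the 12 genes called in any of the 3 comparisons it was A in 53.3%, C in 13.3%, G in 26.7% and T in 6.67%. An annotated start is not a measured one, and the counts do not show which start was used. Within the full 300-base promoters, searched on both strands, the GC box (GGGCGG) was found in 61.0% of the promoters of these genes and 35.7% of all promoters. The CCAAT box (CCAAT) was found in 49.2% and 37.4%, and the TATA box (TATAAA) in 6.78% and 13.6%. In the 15 promoters of called genes these shares were 53.3%, 26.7% and 13.3%. The called genes were picked by their values, so these shares are a description with no test. None of the 3 motifs contains another, and a match is a description of the sequence only.

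Importin α adaptors moved in different directions. Of the 5 tested, 1 was called with siRNA 1 and 3 with siRNA 2 (20% and 60%, beside 4.67% and 9.72% of all genes). Kpna1 (chr16:35978750-36037131), an adaptor for classical nuclear localisation signals, was counted at 143, 147 and 139 CPM in control, 116, 123, 128 and 137 CPM with siRNA 1, and 112, 108, 112 and 124 CPM with siRNA 2. Every library of either CMTR1 siRNA was below every control library. The log2 fold change was −0.18 (95% interval −0.29 to −0.071, adjusted p = 0.0479) with siRNA 1 and −0.32 (−0.43 to −0.22, adjusted p = 6.74e-05) with siRNA 2. The siRNA 2 call held with each library left out in turn, with an adjusted p of 0.00218 at most. The siRNA 1 call was close to the threshold and was kept only without siRNA 1 replicate 4; without control replicate 1, 2 or 3 or siRNA 1 replicate 1, 2 or 3 the adjusted p reached up to 0.228.

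Kpna6 (chr4:129643980-129672767), another adaptor, was counted at 135, 142 and 130 CPM in control, 137, 148, 145 and 140 CPM with siRNA 1, and 167, 169, 150 and 149 CPM with siRNA 2. The siRNA 2 libraries were all above the control libraries, and the siRNA 1 libraries overlapped with control. With siRNA 2 the log2 fold change was 0.22 (0.12 to 0.33, adjusted p = 0.00401), which became an adjusted p of 0.0516 without control replicate 3. Kpna4 (chr3:69067149-69127113) was at 183, 175 and 161 CPM in control and 196, 200, 181 and 204 CPM with siRNA 2, so the groups overlapped by siRNA 2 replicate 3. Its log2 fold change was 0.17 (0.069 to 0.28, adjusted p = 0.0311). This call did not hold with TMM factors, with DESeq2 or without any of control replicates 2 and 3 and siRNA 2 replicates 1, 2 and 4, where the adjusted p reached 0.244. Kpna2, by length the most abundant adaptor, was close to control with both siRNAs, with log2 fold changes of 0.034 (−0.057 to 0.13) and 0.049 (−0.042 to 0.14). Kpna3 was at 93.8 ± 2.83 CPM in control (SD, n = 3), 86.5 ± 7.56 with siRNA 1 and 101 ± 5.92 with siRNA 2 (n = 4 each), and did not pass the test against control with either siRNA.

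Of the 11 importin β family receptors, 1 was called with siRNA 1 and 1 with siRNA 2 (9.09% each, beside 4.67% and 9.72% of all genes). Ipo7 (chr7:110018274-110056609), a carrier of ribosomal proteins and histone H1, was counted at 521, 510 and 477 CPM in control, 412, 432, 465 and 460 CPM with siRNA 1, and 482, 464, 468 and 498 CPM with siRNA 2. The siRNA 1 libraries lay below all control libraries, and the siRNA 2 libraries overlapped with them. Its log2 fold change was −0.18 (−0.27 to −0.095, adjusted p = 0.00963) with siRNA 1 and −0.073 (−0.16 to 0.016, adjusted p = 0.341) with siRNA 2. Without control replicate 1 or 2 or siRNA 1 replicate 1 or 2 the siRNA 1 call was lost, with an adjusted p of up to 0.0820. Ipo13 (chr4:117894486-117914999), a receptor that both imports and exports cargo, was at 98.8, 105 and 104 CPM in control, 107, 118, 102 and 105 CPM with siRNA 1, and 114, 119, 120 and 115 CPM with siRNA 2. All siRNA 2 libraries exceeded control, with a log2 fold change of 0.19 (0.079 to 0.29, adjusted p = 0.0230). That call was lost without control replicate 1 or 3, with an adjusted p of up to 0.114, as well as with TMM factors and DESeq2.

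The central carrier Kpnb1 was at 1191 ± 23.8 CPM in control, 1166 ± 52.3 CPM with siRNA 1 and 1220 ± 33.0 CPM with siRNA 2. Its intervals, −0.11 to 0.05 with siRNA 1 and −0.046 to 0.12 with siRNA 2, hold 0 and are narrow. Tnpo1, which imports RNA-binding proteins, had log2 fold changes of 0.022 (−0.062 to 0.11) and 0.054 (−0.03 to 0.14). Over the 16 import receptors tested, the median log2 fold change was −0.0043 with siRNA 1 and 0.05 with siRNA 2.

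Among the 5 exportins, only Xpot was called, and it was lower with both siRNAs (20% each, beside 4.67% and 9.72% of all genes). Xpot (chr10:121587380-121626332) encodes exportin-t, the carrier of mature tRNA to the cytoplasm. It was counted at 265, 290 and 280 CPM in control libraries, 219, 230, 249 and 231 CPM with siRNA 1, and 252, 252, 238 and 248 CPM with siRNA 2, with no overlap between control and either siRNA. The log2 fold change was −0.26 (−0.36 to −0.17, adjusted p = 0.000277) with siRNA 1 and −0.17 (−0.26 to −0.079, adjusted p = 0.0141) with siRNA 2. With siRNA 1 the call held with each library left out, at an adjusted p of 0.0111 or less. With siRNA 2 it was lost without control replicate 2 or 3, where the adjusted p reached 0.122. Of its 75-nt stretches, 6.72% also occur in the annotated locus Gm7389. The other exportins differed less. Xpo1 had log2 fold changes of −0.045 (−0.14 to 0.05) and 0.062 (−0.032 to 0.16), and Xpo4, Xpo6 and Xpo7 did not pass the test with either siRNA. Xpot and Kpna1 were the 2 genes called with both siRNAs, in comparisons that share the control libraries. The share of all genes called with both siRNAs was not counted, so this overlap has no background beside it.

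**Figure D3:**
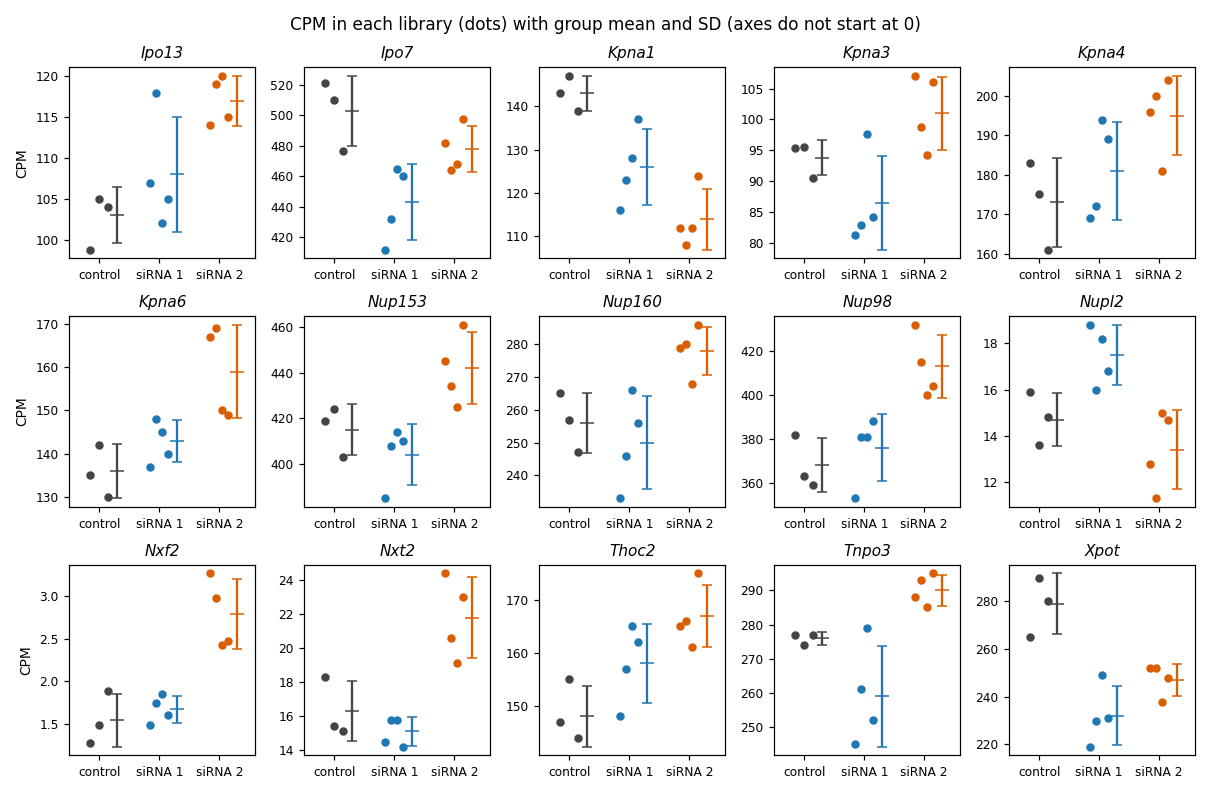
CPM (y axis) in each library of the 15 genes called in at least 1 of the 3 comparisons, with control, siRNA 1 and siRNA 2 on the x axis. Dots are libraries and the bar beside them is the group mean with its SD. Kpna1 and Xpot lie below control with both siRNAs, while Nxt2 lies at 19.1 to 24.4 CPM with siRNA 2 and at 14.2 to 18.3 CPM in the other libraries.

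In the mRNA export route, the principal receptor Nxf1 was not called, and 3 other genes were higher with siRNA 2. These 3 were 25% of the 12 genes tested, beside 9.72% of all genes called in either direction and 6.17% called higher. With siRNA 1, 0 of the 12 were called, beside 4.67% of all genes. Nxf1 was at 199 ± 2.79 CPM in control, 194 ± 8.56 with siRNA 1 and 197 ± 7.94 with siRNA 2, with intervals of −0.13 to 0.058 and −0.10 to 0.082 for the log2 fold change. Nxt1, its partner, was at 25, 22.2 and 22.9 CPM in control and 26.8, 28.3, 25.5 and 26.1 CPM with siRNA 2. These groups did not overlap, but the log2 fold change of 0.19 (0.017 to 0.37) had an adjusted p of 0.179.

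Nxt2 (chrX:142226770-142239692), a relative of Nxt1 that can also pair with Nxf proteins, was counted at 18.3, 15.4 and 15.1 CPM in control, 14.5, 15.8, 15.8 and 14.2 CPM with siRNA 1, and 24.4, 20.6, 19.1 and 23 CPM with siRNA 2. The siRNA 2 libraries were above all the others. The log2 fold change was 0.42 (0.22 to 0.62, adjusted p = 0.00583) with siRNA 2 and −0.11 (−0.32 to 0.11, adjusted p = 0.699) with siRNA 1. Without control replicate 3 the siRNA 2 call had an adjusted p of 0.0537. Nxf2 (chrX:134944526-134964754), a paralogue of Nxf1 best known from germ cells, was at 1.27, 1.48 and 1.88 CPM in control, 1.48, 1.74, 1.85 and 1.60 CPM with siRNA 1, and 3.27, 2.98, 2.43 and 2.47 CPM with siRNA 2. The siRNA 2 libraries did not overlap with the rest, but each value rests on only 10 to 25 reads. The log2 fold change of 0.85 (0.33 to 1.37) had an adjusted p of 0.0341, which rose to 0.134 at most when 1 library was left out (control replicate 1 or 2, siRNA 2 replicate 1 or 2) and to 0.0657 without a filter on low counts. Nxf7, also on the X chromosome, had 13 to 31 reads per library and went the other way with siRNA 2, with a log2 fold change of −0.60 that did not pass the test (adjusted p = 0.167).

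The THO complex coats nascent mRNA, and Thoc2 (chrX:41794991-41920674) encodes its large scaffold subunit. Thoc2 was at 147, 155 and 144 CPM in control, 148, 157, 165 and 162 CPM with siRNA 1, and 165, 166, 161 and 175 CPM with siRNA 2. All siRNA 2 libraries exceeded control, and the siRNA 1 libraries overlapped with both groups. With siRNA 2 the log2 fold change was 0.17 (0.072 to 0.27, adjusted p = 0.0235), and with siRNA 1 it was 0.09 (−0.0097 to 0.19, adjusted p = 0.376). The siRNA 2 call was lost with TMM factors and DESeq2 and without control replicate 1 or 3 or siRNA 2 replicate 4, with an adjusted p of up to 0.134. The other subunits were not called with either siRNA, and of these only Thoc7 had an unadjusted p under 0.05, with siRNA 2 (log2 fold change 0.19, adjusted p = 0.143). Over the 12 genes of the THO complex and the Nxf and Nxt families the median log2 fold change was −0.0081 with siRNA 1 and 0.11 with siRNA 2.

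In the structural core of the pore, made of the inner and outer rings, 0 of 11 genes were called against control with either siRNA by edgeR, and 0 by DESeq2. Nup98, whose precursor also gives an outer ring protein, was listed with the channel genes and is not among the 11. Over all genes edgeR called 4.67% and 9.72%, which leaves 0 of 11 near the background. At an unadjusted p under 0.05 edgeR gave 0 genes with siRNA 1 and 1 with siRNA 2 (Nup160). Their log2 fold changes ran from −0.10 (Nup35) to 0.063 (Nup43) with siRNA 1 and from −0.053 (Nup133) to 0.12 (Nup160) with siRNA 2. Nup93, which organises the inner ring, was at 186 ± 6.09 CPM in control, 186 ± 8.97 with siRNA 1 and 195 ± 4.79 with siRNA 2. Nup107, of the Y-shaped outer ring, was at 165 ± 1.68, 167 ± 4.77 and 166 ± 5.77 CPM, with intervals of −0.078 to 0.11 and −0.087 to 0.10. The channel protein Nup62 had log2 fold changes of 0.014 (−0.085 to 0.11) and 0.015 (−0.084 to 0.11). Nup214, on the cytoplasmic face, had 0.0032 (−0.086 to 0.092) and 0.05 (−0.039 to 0.14), and Nup210, which spans the membrane, had 0.047 (−0.055 to 0.15) and −0.02 (−0.12 to 0.082). Values this close to 0 changed sign between scalings for some genes, as given at the end.

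Only Nup98 among the 22 tested pore genes of the naming rule was called against control, and with siRNA 2 alone. That is 4.55% of these pore genes, beside 9.72% of all genes, and 0% beside 4.67% with siRNA 1. Of 10 pore proteins outside the rule, 1 was called with siRNA 1 (Aaas, higher). With siRNA 2, 1 of the 10 was lower (Rae1) and 2 were higher (Pom121 and Ranbp2), as given below. Nup98 (chr7:102119398-102210176) encodes a channel protein that binds the mRNA export factor Rae1, and its precursor also gives the outer ring protein Nup96. It was counted at 382, 363 and 359 CPM in control, 353, 381, 381 and 388 CPM with siRNA 1, and 432, 415, 400 and 404 CPM with siRNA 2. The siRNA 2 libraries were above every other library. The log2 fold change was 0.17 (0.078 to 0.25, adjusted p = 0.0119) with siRNA 2 and 0.03 (−0.058 to 0.12, adjusted p = 0.802) with siRNA 1. The siRNA 2 call was lost without control replicate 2 or 3 or siRNA 2 replicate 1, with an adjusted p of up to 0.0861. With siRNA 2 the libraries of Nup153 and Nup160 also lay above control without passing the test, at log2 fold changes of 0.088 (adjusted p = 0.213) and 0.12 (adjusted p = 0.106).

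**Figure D4:**
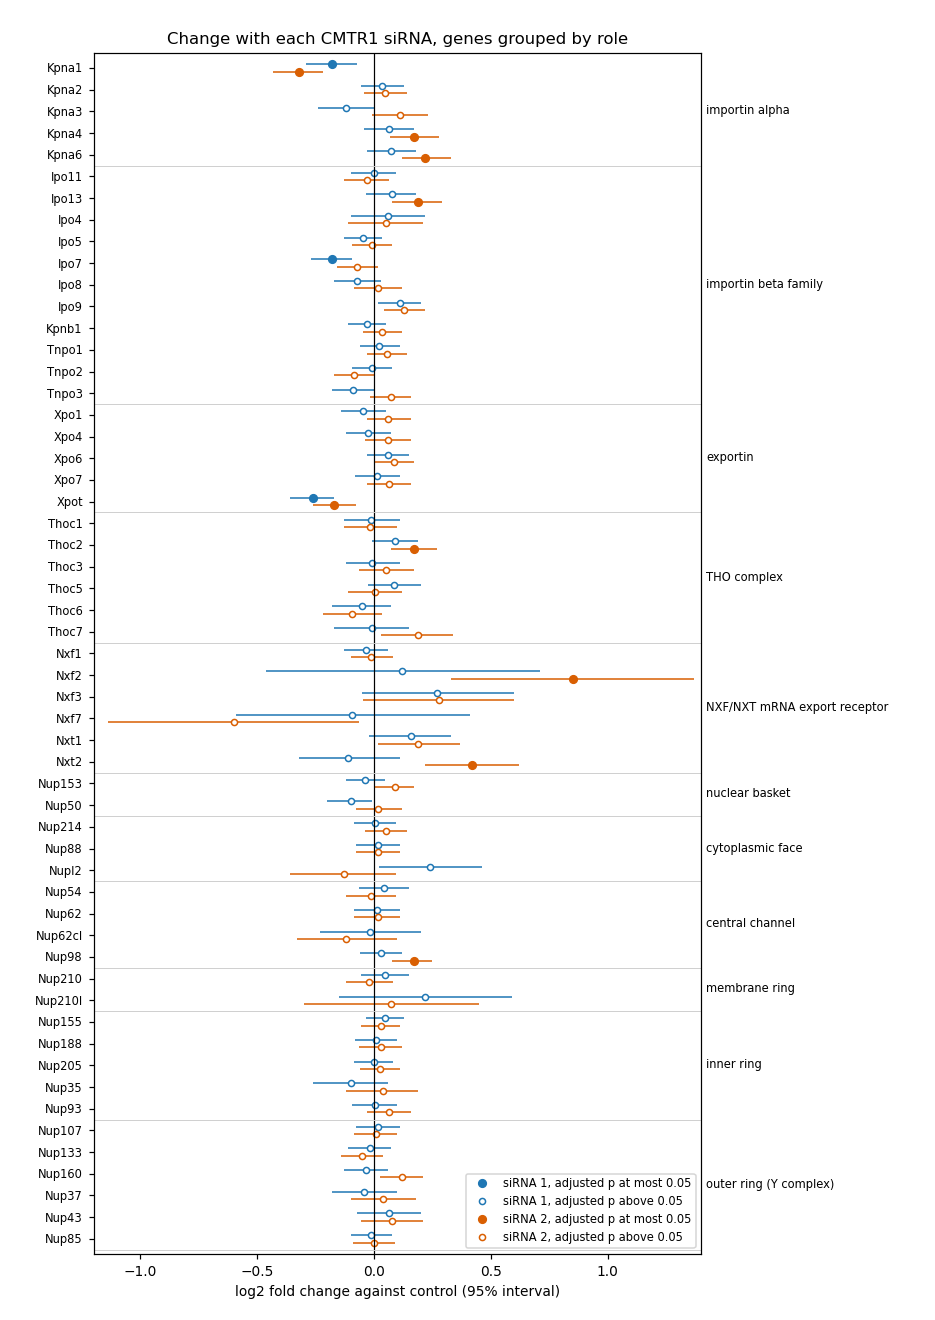
Log2 fold change against control (x axis) with 95% intervals for the 55 genes tested (y axis), grouped by role, with siRNA 1 in blue and siRNA 2 in orange. Filled points passed an adjusted p of 0.05: 3 genes with siRNA 1 and 9 with siRNA 2. The inner and outer ring genes lie between −0.10 and 0.12, and Nup98 is drawn with the central channel genes.

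Without regard to the test, the libraries of 6 genes did not overlap with control with siRNA 1 (10.9%, beside 15.5% of all genes), 4 lower (7.27%, beside 6.23%) and 2 higher (3.64%, beside 9.28%). With siRNA 2, 16 genes did not overlap with control (29.1%, beside 19.4% of all genes), 3 lower (5.45%, beside 6.99%) and 13 higher. The 13 higher genes were 23.6% of those tested, beside 12.4% of all genes. At or above 100 CPM the share with siRNA 2 in either direction was 29.7% for the transport genes and 24.6% for all genes. By direction it was 24.3% and 13.5% for higher and 5.41% and 11.1% for lower.

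The 2 siRNAs were then compared directly. The control libraries do not enter the difference, but they share the estimate of the spread and the filter, and a fit of the 2 siRNA groups alone called 6 genes, without Kpna6 and Nup153. Of the 55 genes, 8 were called (14.5%, beside 7.44% of all genes), 7 higher (12.7%, beside 4.49%) and 1 lower (1.82%, beside 2.96%) with siRNA 2 than with siRNA 1. At or above 100 CPM the shares in either direction were 13.5% of the transport genes and 11.9% of all genes. Higher calls were 13.5% and 6.94%, and lower calls 0% and 5.01%. Nxt2 had the lowest adjusted p, with a log2 difference of 0.53 (0.33 to 0.72, adjusted p = 0.000315), and the call held with each library left out. Kpna3, an importin α, differed by 0.23 (0.12 to 0.34, adjusted p = 0.00813), and this call also held with each library left out, at an adjusted p of 0.0468 or less. Its siRNA 1 values of 81.3, 82.9, 97.7 and 84.2 CPM and siRNA 2 values of 107, 98.7, 94.2 and 106 CPM nevertheless overlapped.

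Tnpo3, the importer of serine/arginine-rich splicing factors, was at 245, 261, 279 and 252 CPM with siRNA 1 and 288, 293, 285 and 295 CPM with siRNA 2, on either side of the control values of 277, 274 and 277 CPM except for siRNA 1 replicate 3. Its log2 difference was 0.16 (0.079 to 0.24, adjusted p = 0.0121). Nup160, of the outer ring, was at 233, 246, 266 and 256 CPM with siRNA 1 and 279, 280, 268 and 286 CPM with siRNA 2, a log2 difference of 0.15 (0.068 to 0.24, adjusted p = 0.0216). Nup153, of the nuclear basket, was at 385, 408, 414 and 410 CPM and at 445, 434, 425 and 461 CPM, a log2 difference of 0.13 (0.048 to 0.21, adjusted p = 0.0417). The siRNA groups of these 3 genes did not overlap. Nup98 differed by 0.14 (0.055 to 0.22, adjusted p = 0.0328). Kpna6 differed by 0.15 (0.055 to 0.25) at an adjusted p of 0.05, and was above the threshold with 5 of 7 processing alternatives. Nup153 was above it with 4 of 7, among them TMM factors and the fit of 2 groups, at an adjusted p of 0.0598 at most.

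The 1 gene lower with siRNA 2 than with siRNA 1 was Nupl2, which encodes a cytoplasmic-face protein that binds the mRNA export factor Gle1. It was at 15.9, 13.6 and 14.8 CPM in control, 18.8, 16, 18.2 and 16.8 CPM with siRNA 1, and 12.8, 11.3, 15 and 14.7 CPM with siRNA 2. Its log2 difference was −0.38 (−0.58 to −0.17, adjusted p = 0.0196), with 90 to 138 reads per library. DESeq2 gave an adjusted p of 0.0508. Leaving out single libraries of either siRNA left 3 to 11 of the 55 genes called in this comparison. Over all genes it left 724 to 1365 called, beside 1196 with every library. Without siRNA 1 replicate 1, 3 genes were called, and Kpna6, Nup153, Nup160, Nup98, Nupl2 and Tnpo3 were no longer among them. Without siRNA 2 replicate 1 the number was also 3 (Nxt2, Kpna3 and Tnpo3), and without siRNA 1 replicate 2 it was 4. Without siRNA 1 replicate 4 the calls of Tnpo3, Nup153 and Kpna6 were lost and 5 genes were called, and without siRNA 2 replicate 2 those of Nup98, Nupl2 and Kpna6 were lost and 5 were called. The call of Nup153 and that of Nup160 were also lost without siRNA 2 replicate 4, and that of Kpna6 without siRNA 1 replicate 3. The highest adjusted p reached in this way was 0.178, for Kpna6. Xpot and Kpna1, called with both siRNAs, differed between them by 0.092 (0.005 to 0.18, adjusted p = 0.22) and −0.15 (−0.25 to −0.043, adjusted p = 0.0802).

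Of the 55 genes tested, 6 are on the X chromosome: Nxt2, Nxf2, Nxf3, Nxf7, Thoc2 and Nup62cl. With siRNA 2, 3 of these 6 were called higher (Nxt2, Nxf2 and Thoc2), and 4 of the 49 autosomal genes. DESeq2 called 1 of the 6, Nxt2, and without control replicate 3 only Nxf2 was called. Over all genes tested, 62 of 527 on the X chromosome (11.8%) and 927 of 15513 on autosomes (5.98%) were called higher with siRNA 2. With siRNA 1 these shares were 2.66% and 2.71%, and 0 of the 6 genes were called by edgeR or DESeq2, with 0 at an unadjusted p under 0.05. The shares are given as a description, with no test.

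Other genes of the pathway, listed by known role and outside the naming rule, were read in the same way. All 37 were tested. With siRNA 1, 1 was lower and 2 were higher, and with siRNA 2, 2 were lower and 3 were higher. These calls were 8.11% and 13.5% of the list, beside 4.67% and 9.72% of all genes. Their median log2 fold changes were −0.01 and 0.064. Fyttd1, the mRNA export adaptor UIF, was higher with both siRNAs, at 56, 61.9 and 48.5 CPM in control, 60.1, 68.3, 71.1 and 69.6 CPM with siRNA 1, and 80.3, 73.2, 65.7 and 86.3 CPM with siRNA 2. Its log2 fold change was 0.28 (adjusted p = 0.0263) and 0.46 (adjusted p = 5.13e-05). Control and siRNA 1 overlapped and control and siRNA 2 did not. The siRNA 1 call was lost with DESeq2 (adjusted p = 0.0882) and without control replicate 1 or 3 or siRNA 1 replicate 2, 3 or 4, where the adjusted p reached 0.258.

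Ddx19a, a relative of the RNA helicase that releases mRNA at the cytoplasmic face, was at 52.2, 59.1 and 49.7 CPM in control, 38.4, 42.4, 40 and 44.8 CPM with siRNA 1, and 59.4, 63.7, 56.5 and 59.8 CPM with siRNA 2. It was lower with siRNA 1 by log2 −0.37 (adjusted p = 0.000661) and was not called with siRNA 2 (0.16, adjusted p = 0.143), and the siRNAs differed by 0.53 (adjusted p = 2.68e-07). Pom121, which anchors the pore in the membrane, was at 200, 208 and 207 CPM in control, 174, 196, 181 and 186 CPM with siRNA 1, and 245, 267, 236 and 214 CPM with siRNA 2. It was higher with siRNA 2 by log2 0.23 (adjusted p = 0.00331) and had −0.15 (adjusted p = 0.0991) with siRNA 1, a difference of 0.38 between siRNAs (adjusted p = 6.95e-07).

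Aaas, a scaffold pore protein, was higher with siRNA 1 (log2 0.27, adjusted p = 0.00144). Ranbp2, which forms the cytoplasmic filaments, was higher with siRNA 2 (0.19, adjusted p = 0.00657). Rae1, the mRNA export partner of Nup98, was lower with siRNA 2 (−0.19, adjusted p = 0.0142), as was Rcc1, the chromatin-bound exchange factor that charges Ran with GTP (−0.17, adjusted p = 0.0141). Rcc1 was at 172, 176 and 169 CPM in control, 155, 155, 158 and 155 CPM with siRNA 1, and 157, 157, 149 and 150 CPM with siRNA 2, below control in all libraries of either siRNA. With siRNA 1 its log2 fold change was −0.15 with an adjusted p of 0.0632. The siRNA 2 calls of Rae1 and Rcc1 were lost without control replicate 2 (adjusted p = 0.0824 and 0.0863) and that of Ranbp2 without control replicate 3 (adjusted p = 0.0867).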

How the data were processed

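The authors deposited counts of reads per Ensembl gene for 11 libraries. Per the labels and the methods, rRNA-depleted directional libraries were trimmed (Cutadapt), aligned to GRCm38 (STAR), cleared of PCR duplicates (Picard) and counted with featureCounts. Tally lines in the layout of HTSeq-count were set aside. Of 54838 identifiers, 54809 matched GENCODE M21. Genes with more than 1 CPM in at least 4 libraries (16073) entered a model of the 3 groups with total-count scaling and were compared by the quasi-likelihood test of edgeR 4.0.16 in R 4.3.3. Adjusted p-values are Benjamini-Hochberg values over all genes tested, with 0.05 as the threshold. The SE is the size of the log2 fold change over the square root of the F statistic of the test. Intervals are ± 1.96 SE, a normal multiplier, and are somewhat narrower than the test implies. For Tnpo2 with siRNA 2 the interval was −0.17 to −0.001 at an unadjusted quasi-likelihood p of 0.0544. Alternatives were TMM factors, DESeq2 1.42.0, exactTest, other filters, a fit of 2 groups, a replicate block and leaving out each library. The code was checked on simulated counts. The methods name 3 biological replicates for PCR or sequencing, whereas each CMTR1 siRNA has 4 libraries. Neither the methods nor the labels say which libraries come from separate cultures. The p-values therefore measure the spread between these libraries, and n counts libraries. Genes were named if called in any comparison or if they represent a role; the other pathway genes were named if called against control. The members and lists were chosen with earlier results of these data known.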

Additional observations from a re-analysis of the deposited data

Results flagged for a closer look

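The effect of siRNA 2 differed from that of siRNA 1 by the direct test of the difference (edgeR, adjusted over all genes tested) for 8 genes. The log2 differences were 0.53 for Nxt2, 0.23 for Kpna3, 0.16 for Tnpo3, 0.15 for Nup160, 0.15 for Kpna6, 0.14 for Nup98, 0.13 for Nup153 and −0.38 for Nupl2. Each siRNA was represented by 4 libraries. No library was flagged as standing apart from its group in the 52 groups of 4 that were examined. With 4 values, such a check can flag only a library very far from the rest, so the absence of flags decides little. The control libraries were not examined in this way. The check therefore does not cover control replicate 3, without which most of the siRNA 2 calls against control were lost.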

How the results depend on the processing

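With siRNA 1, 3 genes were called under each processing alternative, and leaving out 1 library gave 1 to 3 calls. With siRNA 2, the 9 calls became 5 with DESeq2, where Ipo13, Kpna4, Thoc2 and Nxf2 did not pass, and leaving out 1 library gave 2 to 10. Between the siRNAs, leaving out 1 library gave 3 to 11 calls. Over all genes, leaving out 1 library gave 355 to 852, 807 to 1658 and 724 to 1365 calls in the 3 comparisons. With 1 library left out, the medians of the 55 genes ran from −0.0058 to 0.011, from 0.02 to 0.053 and from 0.016 to 0.053. They were −0.022, 0.014 and 0.027 with TMM factors and −0.026, 0.009 and 0.027 with DESeq2. With siRNA 1 and TMM factors, uncalled log2 fold changes changed sign for Nup107 (−0.0047), Nup214 (−0.017), Nup62 (−0.0058) and Nup93 (−0.018), and with DESeq2 for Nup107 (−0.0085), Nup214 (−0.021), Nup62 (−0.0096), Nup93 (−0.021) and Tnpo1 (−0.0017). With siRNA 2 they did so for Nup107 (−0.018) and Nup62 (−0.0099) with TMM factors and for Nup107 (−0.022) and Nup62 (−0.014) with DESeq2. With 1 library left out, sign also changed in uncalled values near 0. With siRNA 1 these ran from −0.0085 to 0.016 for Nup214, −0.025 to 0.056 for Nup62, −0.027 to 0.024 for Nup93 and −0.0058 to 0.037 for Tnpo1. With siRNA 2 they ran from −0.009 to 0.022 for Nup107, −0.066 to 0.021 for Nup210, −0.025 to 0.056 for Nup62 and −0.036 to 0.0087 for Nxf1. Apart from leaving out libraries, 435 of 469 values of named genes kept their direction and side of the threshold, 20 lost their call and 14 changed sign. Most of these values were not called, and only the 3, 9 and 8 calls of the main fit could be lost. With 1 library left out, 409 of 484 values kept both, 55 lost their call, 3 gained a call and 17 changed sign. The cause was not tested. No pairing of samples by replicate number was seen. Deviations of same-numbered libraries correlated at −0.078 to 0.084 and those of different-numbered libraries at −0.104 to 0.101. In 4 of 11 libraries the closest library of another group had the same number. Counting noise in genes of low count lowers such correlations, so the check cannot exclude pairing. With the replicate number as a block, 3, 7 and 7 genes were called with siRNA 1, with siRNA 2 and between the siRNAs. The calls lost were those of Kpna4 and Thoc2 with siRNA 2 and of Nup153 between the siRNAs, and Nup93 with siRNA 1 was at −0.017. Over all genes with siRNA 1, TMM factors took the split from 316 lower and 435 higher to 400 lower and 346 higher. Read counts were low for Nxf2, Nxf7 and the 3 untested genes, at 31 reads or fewer per library.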
